A study of Drosophila melanogaster with 3 samples.

Results

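LPLC1 and LC4 are visual projection neurons of the Drosophila melanogaster optic lobe, and the pupal cells of both types were compared here at 72 h after puparium formation (APF). The members were the cells that the deposited annotation calls LPLC1 or LC4 in the 72 h library: 646 LPLC1 cells and 604 LC4 cells, together 1250 of the 6003 cells of the final dataset over all stages. Unique molecular identifiers (UMIs) were summed over the cells of 1 type from 1 cross, so that the replicate was the cross: 6 LPLC1 crosses and 4 LC4 crosses.

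Each cross had mothers with a split-GAL4 driver and fathers that brought the nuclear reporter UAS-His2A-GFP and the third chromosome of 1 inbred wild-type strain from the DGRP collection (Drosophila Genetic Reference Panel), by which the cells of a cross were later recognised. The LPLC1 driver was R64G09-p65.AD with R37H04-GAL4.DBD and the LC4 driver was R47H03-p65.AD with 72E01-GAL4.DBD. The LPLC1 crosses used strains 320, 399, 535, 730, 799 and 805, and the LC4 crosses used 399, 535, 799 and 805, in which order the LC4 values are given below. Cells with the reporter were sorted from dissociated brains, LPLC1, LC4 and the related LPLC2 neurons were run together as 1 droplet library per stage, and no perturbation was applied.

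Both types collect visual motion signals in the lobula, and LPLC1 also has dendrites in the lobula plate. Their axons form separate glomeruli in the central brain, where LC4 contacts the giant fiber escape pathway and LPLC1 drives other responses to approaching objects. At this pupal age synapses are being built, and neurons are known to choose partners with the help of cell surface proteins of the immunoglobulin, leucine-rich repeat and cadherin families. Transcription factors that stay on in a mature neuron are known to hold its type-specific programme in place. Both types use acetylcholine as their transmitter.

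An LPLC1 cross held 74 to 154 cells and 1645875 to 3382024 UMIs, and an LC4 cross held 66 to 253 cells and 1958415 to 7041162 UMIs. LC4 cells were the deeper ones, with a median of 29763.5 UMIs and 3619.5 genes per cell against 23182.5 UMIs and 3276.5 genes in LPLC1, and mitochondrial UMIs had a median of 2.15% in LC4 and 2.45% in LPLC1. Levels are therefore given as UMIs per 10000 UMIs of a cross, a scale on which depth per cell cancels, although it does not give levels per length of transcript. The 2 strains not crossed to the LC4 driver, 320 and 730, held 751 cells of any type. They were taken here as the strains with no LC4 cell, so their count of 0 LC4 cells gives no limit on miscalls. The collection windows of the pupae differed between crosses (320, 399 and 535 early, 730, 799 and 805 late), and both windows held both types. Cells with a lncRNA:roX1 UMI, a male transcript, made up 99.0% of the LPLC1 cells of strain 805 and 47.0% to 72.4% of those of every other cross of either type.

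The cells of a stage had been clustered on their most variable genes and the clusters then named by known markers, so the markers are a description and carry no test, and a gene that differs strongly between the types may itself have entered the clustering. The LC4 markers kn, lov and Lim3, which encode transcription factors, averaged 4.92, 1.13 and 1.78 UMIs per 10000 in LC4, and lov was at 0 in 1 LPLC1 cross and at most 0.0182 in the others. The genes salm, salr, Lim1 and Sox102F, which mark LPLC1 and LPLC2, averaged 2.24, 3.32, 4.45 and 3.76 in LPLC1 and 0.06 or less in LC4. The cholinergic genes ChAT and VAChT averaged 2.49 and 8.88 in LPLC1 and 1.61 and 6.53 in LC4, whereas Gad1 of GABA neurons and VGlut of glutamate neurons stayed under 0.05 in every cross of both types. VGAT, the vesicular GABA transporter and the only gene of these 3 to pass the filter on low counts, averaged 0.342 in LPLC1 and 0.411 in LC4 and was called higher in LC4 (log2 fold change -0.29, edgeR adjusted p = 0.0129). Of 5 glial markers repo, moody and wrapper did not pass the filter on low counts, and alrm and Gs2 averaged 0.0282 and 0.0320 in LPLC1 and 0.0491 and 0.0662 in LC4. Of these 2 tested genes 1 was called higher in LC4, and their median log2 fold change was -0.97. The labels LPLC1 and LC4 matched their markers. In 4 LPLC1 cells and 34 LC4 cells 2 or more UMIs of the other type's markers were found.

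Of 6291 genes that passed the filter, 3574 differed between LPLC1 and LC4 at 72 h, which is 56.8% of those tested (edgeR quasi-likelihood test, Benjamini-Hochberg adjusted p under 0.05). LPLC1 had the higher level of 1759 genes (28%) and LC4 of 1815 (28.9%). A difference of at least 2-fold was seen for 968 genes (15.4%), of which 561 (8.92%) were higher in LPLC1 and 407 (6.47%) higher in LC4. The median fold change over all genes was -0.03 on the log2 scale and its median size was 0.38. Levels of 2637 genes (41.9%) did not overlap between the crosses of the types. Because the types had been defined on these cells, an adjusted p states how repeatable a difference was over crosses and not whether the types exist, and the crosses of 1 type shared the driver line and the library.

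**Figure D1:**
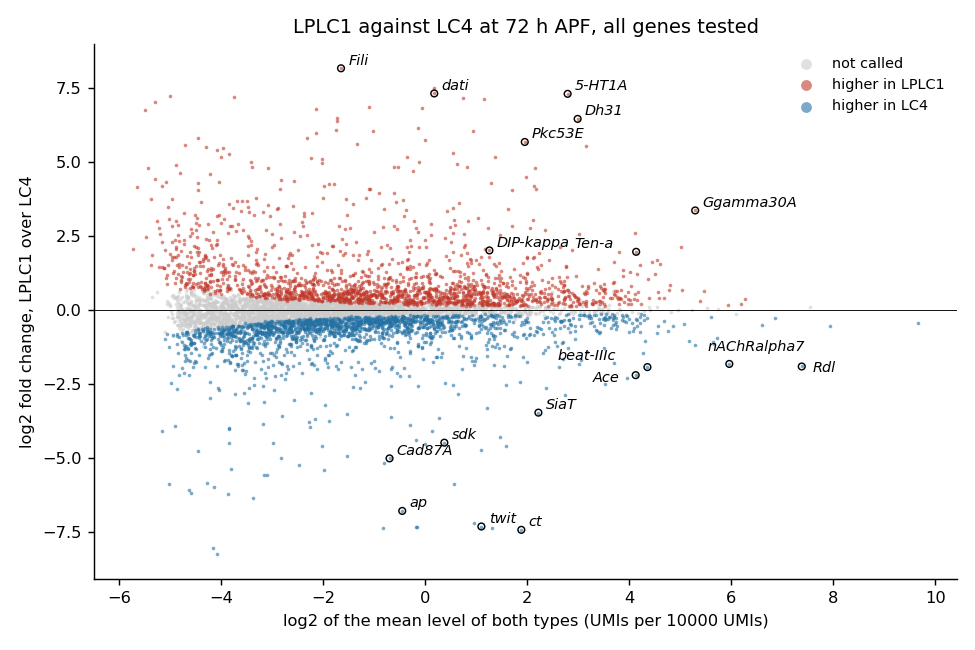
Each point is 1 of the 6291 genes tested at 72 h APF, with the log2 of its mean level in both types (UMIs per 10000 UMIs) on the horizontal axis and the log2 fold change, LPLC1 over LC4, on the vertical axis; grey genes were not called, red ones were higher in LPLC1 and blue ones in LC4. Ggamma30A at 3.37 and Rdl at -1.91 combined high levels with differences of more than 2-fold, and the position of Fili rests on 3 LC4 UMIs.

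The largest differences were taken among called genes with at least 1 UMI per 10000 in the higher type and no overlap of crosses. For these genes the lack of overlap is a condition of the choice and not a result. The 12 largest towards LPLC1 included the markers salm, salr, Lim1 and Sox102F, a further transcription factor (dati), a serotonin receptor (5-HT1A) and a neuropeptide (Dh31). The others were a lncRNA and the genes Sytbeta, beat-Ia, Pkc53E and Pvf3 of vesicle fusion, adhesion and signalling. The gene dati, which encodes a zinc finger transcription factor (dm6 chr4:375640-395605), lay between 2.02 and 2.50 UMIs per 10000 in the LPLC1 crosses with a median of 2.22, and at 0.0102, 0.0127, 0.00735 and 0.0185 in the LC4 crosses. The groups were far apart, with a log2 fold change of 7.33 ± 0.15 (SE; edgeR adjusted p = 9.01e-19). LPLC2, the third type of the library, had a mean of 0.0284. A dati UMI was found in 56.0% of LPLC1 cells after thinning each cell to 10000 UMIs (61.8% without thinning), and in 1.67% of LC4 cells (3.81%).

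5-HT1A encodes a serotonin receptor that lowers cAMP (chr2R:19067155-19121958). Its levels were 11.4 to 14.9 with a median of 14.2 in LPLC1 and 0.112, 0.0714, 0.0980 and 0.0753 in LC4. The log2 fold change was 7.32 ± 0.12 (adjusted p = 1.44e-19, edgeR), and LPLC2 at 0.0834 stood beside LC4. Dh31, a neuropeptide gene related to calcitonin (chr2L:8491868-8506845), was at 13.6 to 18.3 with a median of 15.2 in LPLC1 and at 0.184, 0.199, 0.186 and 0.146 in LC4. This was a log2 fold change of 6.47 ± 0.13 (adjusted p = 2.55e-16, edgeR), with LPLC2 in between at 3.26.

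Other genes of this group were Pvf3, which encodes a growth factor of the PDGF and VEGF family, with a median of 17.6 in LPLC1 against 0.307 to 0.392 in LC4, and Pkc53E, a calcium-dependent protein kinase C, with 7.39 against 0.107 to 0.199. Sytbeta, a member of the synaptotagmin family, had a median of 1.73 in LPLC1 and was at 0.0382 or less in LC4. The adhesion gene beat-Ia had a median of 1.83 and was at 0.0562 or less in LC4. A non-coding gene on chromosome 4, lncRNA:CR44024, had a median of 1.86 in LPLC1 and was at 0.0269 or less in LC4. Log2 fold changes of these 5 genes ranged from 5.57 (Pvf3) to 6.85 (lncRNA:CR44024).

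In the opposite direction 2 transcription factors led beside the LC4 markers. The gene ct, the homeodomain factor Cut known for its effect on dendrite shape (chrX:7608428-7678859), was at 7.03, 7.94, 6.92 and 7.49 UMIs per 10000 in LC4 and between 0.0190 and 0.0950 in LPLC1, where the median was 0.0393. The log2 fold change was -7.44 ± 0.16 (adjusted p = 1.41e-15, edgeR). The gene ap, the LIM homeodomain factor Apterous, was at 1.31, 1.49, 1.44 and 1.57 in LC4 and at 0.0250 or less in LPLC1 (log2 fold change -6.80). Each of them was near the LPLC1 level in LPLC2 too, at 0.0387 for ct and 0.0102 for ap.

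The gene twit, which encodes a small membrane-anchored protein of the Ly6 type, was at 4.12, 4.83, 4.09 and 4.03 in LC4 and between 0.0159 and 0.0650 in LPLC1 with a median of 0.0224. The log2 fold change was -7.33 ± 0.15 (adjusted p = 8.75e-18, edgeR). At 48 h twit did not pass the filter on low counts, while at 96 h its log2 fold change was -9.05 (edgeR adjusted p = 0.00103). Cad87A, a cadherin, was at 1.05, 1.22, 1.29 and 1.22 in LC4 and at 0.0550 or less in LPLC1 (log2 fold change -5.02). CG32521, which RefSeq names Mnr, was at 3.94 to 4.31 in LC4 and 0.108 to 0.186 in LPLC1. CG18636, CG11317, CG14322 and lncRNA:CR45223 filled the group, with log2 fold changes of -7.23, -5.87, -5.16 and -7.34. The last 2 genes overlap on opposite strands of chromosome arm 3R, and how strand was treated in the counting was not checked here.

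**Figure D2:**
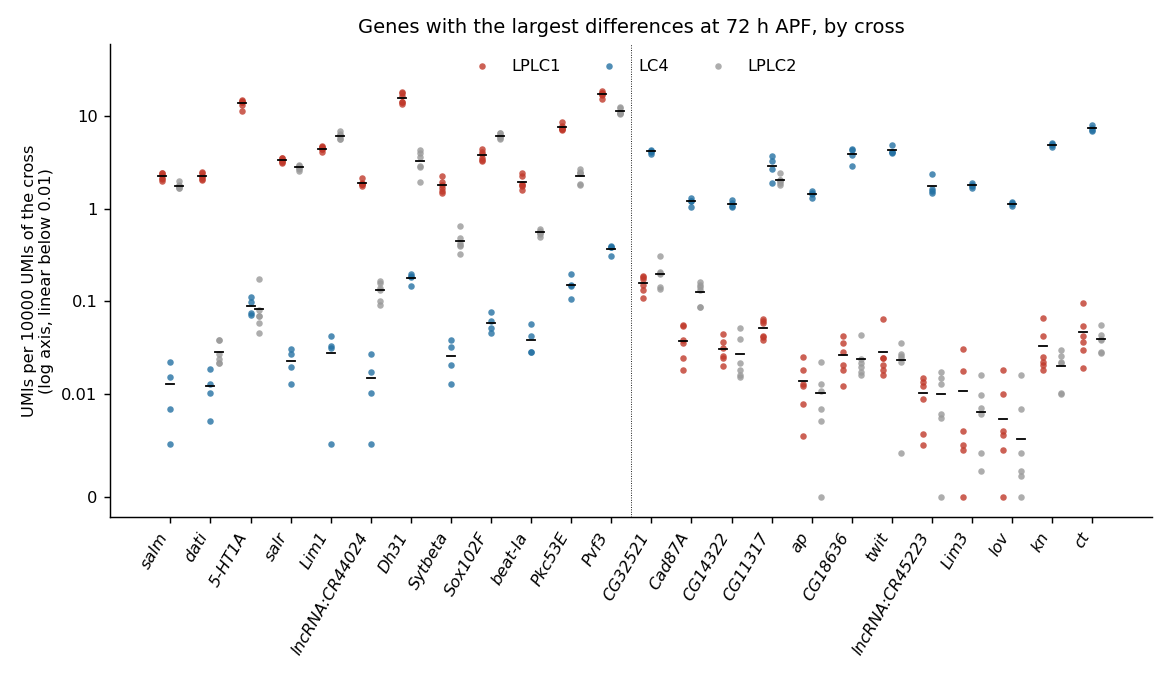
Levels at 72 h APF of the 12 genes with the largest difference in each direction, in UMIs per 10000 UMIs of a cross on a log axis that is linear below 0.01; each point is 1 cross (6 LPLC1, 4 LC4, 6 LPLC2) and the black line is their mean. Red LPLC1 points on the left side and blue LC4 points on the right side lie apart from the other type because genes with overlap were not chosen. The lower type was often at the level of LPLC2 (dati 0.0284, ct 0.0387).

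The level in the lower type was a small share of that in the higher type, 0.648% for 5-HT1A, 0.541% for dati, 0.628% for ct and 0.657% for twit. For the LC4 markers the same share was 0.661% (kn) and 0.598% (Lim3). The part of free RNA of the shared library in the values of the lower type was not tested.

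Cell recognition genes, and the families after them, were then read against the shares of all genes called. These were 56.8% in all, 28% higher in LPLC1 and 28.9% higher in LC4, and no test of a family was run. DIP and dpr genes encode immunoglobulin proteins that bind one another across synapses. Of 7 DIP genes tested 3 were higher in LPLC1 and 2 in LC4, all by more than 2-fold. DIP-delta was at 2.63 to 3.51 with a median of 2.94 in LPLC1 and at 0.123, 0.130, 0.0710 and 0.0810 in LC4, a log2 fold change of 4.93 ± 0.14 (adjusted p = 1.37e-15, edgeR). DIP-theta was the reverse, at 2.52, 2.03, 2.11 and 2.24 in LC4 and 0.302 to 0.600 with a median of 0.389 in LPLC1, a log2 fold change of -2.47 ± 0.12 (edgeR adjusted p = 9.54e-11). The highest LPLC1 value of DIP-theta, strain 805, was still far under the lowest LC4 value.

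DIP-kappa was at 2.27 to 4.73 with a median of 3.94 in LPLC1 and at 0.873, 0.742, 1.16 and 0.981 in LC4. The log2 fold change was 2.02 ± 0.23 (adjusted p = 4.11e-05, edgeR), with LPLC2 at 0.0886. DIP-beta was at 1.28 to 2.12 with a median of 1.83 in LPLC1 and at 0.0817, 0.0433, 0.0612 and 0.0497 in LC4, a log2 fold change of 5.0 ± 0.18 (edgeR adjusted p = 1.89e-12). Each LPLC1 cross was above all LC4 crosses for both genes.

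All 21 dpr genes were tested, of which 10 were higher in LPLC1, 5 higher in LC4 and 6 not called, with a median log2 fold change of 0.13 against -0.03 for all genes. The genes dpr16 and dpr17 had medians of 1.31 and 1.64 in LPLC1 and were at 0.0540 or less and 0.123 or less in LC4 (log2 fold changes 4.83 and 4.72). The gene dpr11 was at 4.40 to 5.15 in LPLC1 and 0.568 to 0.933 in LC4 (2.55). The gene dpr1 was the only dpr gene more than 2-fold higher in LC4, at 11.5, 12.6, 13.8 and 12.6 against 2.93 to 4.20 in LPLC1, a log2 fold change of -1.84 ± 0.09 (edgeR adjusted p = 5.28e-11). The gene dpr13 was at 7.79 to 9.36 in LPLC1 and at 8.78, 7.83, 7.74 and 7.78 in LC4, ranges that overlapped, and was not called (log2 fold change 0.13, edgeR adjusted p = 0.0652). In 5 other settings its adjusted p lay between 0.00022 and 0.0494 (edgeR or DESeq2), among them those without the LPLC1 cross of strain 805 (0.012) or the LC4 cross of strain 399 (0.0302).

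Beat proteins and their Side partners form a second receptor and ligand system. All 13 beat genes tested were called, 11 higher in LPLC1 and 2 higher in LC4, and 8 and 1 of them by 2-fold or more. One of the pair higher in LC4, beat-Vb (-0.27), was no longer called in the earlier collection window alone (edgeR adjusted p = 0.0894). The median log2 fold change of the family was 1.24. The gene beat-VI was at 2.19 to 2.75 in LPLC1 and 0.250 to 0.410 in LC4 (2.81), and beat-VII at 0.375 to 0.851 and 0.0510 to 0.10 (2.84). The gene beat-IIIc went the other way at higher levels, 31.1, 31.8, 34.7 and 32.0 in LC4 and 7.43 to 9.53 in LPLC1, a log2 fold change of -1.93 ± 0.06 (edgeR adjusted p = 7.44e-16). Of 8 side genes 4 were higher in LPLC1 and 3 in LC4. The gene side-II was at 2.05, 1.88, 1.91 and 1.82 in LC4 and at 0.127 or less in LPLC1, a log2 fold change of -4.55 ± 0.14 (edgeR adjusted p = 1.09e-15), while side-VI was at 6.68 to 7.62 in LPLC1 and 2.15 to 2.80 in LC4 (1.52).

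Of 30 other immunoglobulin genes 15 were higher in LPLC1 and 8 in LC4. The gene sdk, a homophilic adhesion protein of synaptic layers, was at 2.21, 2.47, 2.79 and 2.48 in LC4 and 0.0608 to 0.150 with a median of 0.118 in LPLC1. The types did not overlap and the log2 fold change was -4.49 ± 0.12 (edgeR adjusted p = 1.25e-16). CG34353 was at 7.52 to 10.3 in LPLC1 and 0.230 to 0.409 in LC4 (4.82). Fas2, the homophilic adhesion protein Fasciclin 2, was at 1.25 to 2.40 and 0.199 to 0.336 (2.92). CG33543 was at 3.98 to 5.41 in LPLC1 and 3.78 to 5.31 in LC4 and was not called (log2 fold change 0.06 with an SE of 0.11).

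Of 17 leucine-rich repeat and Toll genes 12 were higher in LPLC1, 8 of them by 2-fold or more, and 3 were higher in LC4, none by 2-fold. Of these 3, Toll-6 (-0.83) and kek6 (-0.36) were no longer called in the earlier window alone (edgeR adjusted p = 0.257 and 0.0890). The gene rdo was at 12.8 to 15.4 in LPLC1 and 1.91 to 2.66 in LC4 (log2 fold change 2.58). Kek3 of the Kekkon family was at 0.600 to 0.938 and at 0.0196 or less (5.61). Fili, known as a cell surface protein from other fly neurons and wing cells, had 896 UMIs in LPLC1 and 3 UMIs in all LC4 cells. The ratio of the pooled levels was 361 with a 95% interval of 123 to 1756 (exact binomial, counting error only).

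The teneurins Ten-a and Ten-m, which are known to pair the partners of olfactory synapses in the fly, were both higher in LPLC1. Ten-a was at 25.2 to 29.7 in LPLC1 and 7.5, 6.77, 7.13 and 6.99 in LC4, a log2 fold change of 1.97 ± 0.06 (edgeR adjusted p = 1.79e-16). Ten-m was at 3.57 to 4.63 and 0.557 to 0.627 (2.76). Of the 7 neurexin, neuroligin and teneurin genes tested 5 were higher in LPLC1 and 0 in LC4. The gene kug, the cadherin Fat2, was at 5.32 to 6.02 in LPLC1 and 0.472 to 0.596 in LC4 (3.42), and of the 9 cadherins 5 were higher in LPLC1 and 2 in LC4.

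Guidance genes were divided evenly, with 6 of 17 higher in LPLC1 and 7 in LC4. Within the netrin system fra, the attractive receptor, was at 2.44 to 2.93 in LPLC1 and 0.199 to 0.298 in LC4 (log2 fold change 3.47), while the ligand gene NetB and the repulsive receptor gene unc-5 were higher in LC4 (-0.89 and -0.84). All 6 Wnt pathway genes tested were called, 5 of them higher in LPLC1. The gene arr, the co-receptor of Wnt signals, was at 1.08 to 1.52 in LPLC1 and 0.0613 to 0.118 in LC4 (3.72), and the receptor genes fz and fz2 had log2 fold changes of 2.25 and 1.74. SiaT, a sialyltransferase, was at 8.54, 8.94, 7.90 and 8.80 in LC4 and 0.653 to 0.845 in LPLC1, a log2 fold change of -3.47 ± 0.07 (edgeR adjusted p = 7.02e-19).

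**Figure D3:**
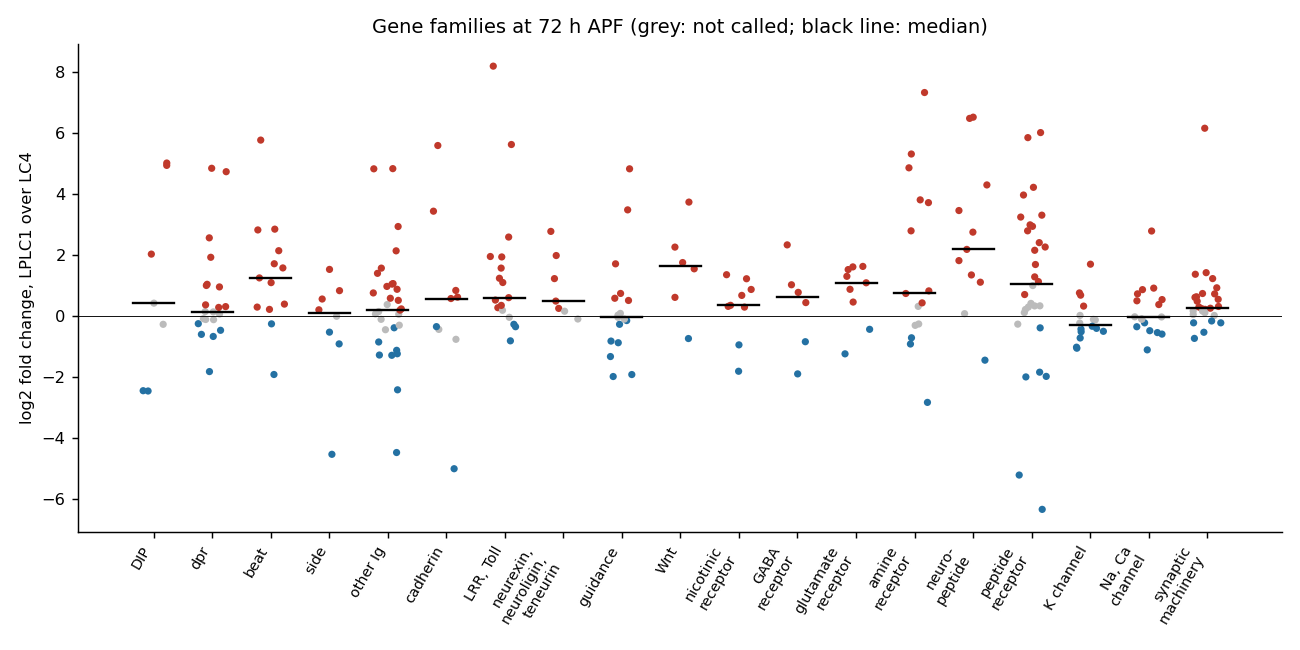
Log2 fold change, LPLC1 over LC4 at 72 h APF, of every tested member of 19 gene families on the vertical axis; red points were called higher in LPLC1, blue points higher in LC4 and grey points not called, and the black line is the family's median. The median of the beat family is 1.24, of the neuropeptides 2.17 and of the potassium channels -0.30, against -0.03 for all genes.

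Of the nicotinic, muscarinic, GABA and glutamate receptor genes tested 100% were called, against 56.8% of all genes. All 9 nicotinic acetylcholine receptor subunits tested differed, 7 higher in LPLC1 and 2 in LC4. The gene nAChRalpha7 was at 90.0, 87.8, 108 and 102 in LC4 and 24.4 to 31.2 with a median of 28.2 in LPLC1, a log2 fold change of -1.83 ± 0.07 (edgeR adjusted p = 3.41e-12), and nAChRalpha5 was at 64.4 to 72.2 and 34.1 to 40.0 (-0.96). In LPLC1 the higher subunits included nAChRalpha6 at 16.7 to 23.6 against 6.48 to 10.4 (1.34) and nAChRalpha1 at 22.1 to 28.0 against 9.60 to 12 (1.21). The muscarinic receptors divided, mAChR-A being higher in LPLC1 (1.07) and mAChR-B in LC4 (-1.57).

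Rdl, the GABA-gated chloride channel, was at 260, 254, 270 and 268 UMIs per 10000 in LC4 and 67.1 to 73.9 with a median of 70.8 in LPLC1. Each LC4 cross was above each LPLC1 cross, and the log2 fold change was -1.91 ± 0.04 (edgeR adjusted p = 6.22e-18). GluClalpha, the glutamate-gated chloride channel, was the reverse, at 31.6 to 35 in LPLC1 and 10.5, 11.3, 11.7 and 9.23 in LC4, a log2 fold change of 1.61 ± 0.07 (edgeR adjusted p = 4.45e-14). These are the channels of the main inhibitory transmitters of the fly brain. Of the 9 glutamate receptor genes 7 were higher in LPLC1 and 2 in LC4, with a median of 1.08. Among them mGluR was higher in LC4 (-1.25), as was GluRIA, whose call was lost without the LC4 cross of strain 799 and with only the strains crossed to both drivers (log2 fold change -0.45, edgeR adjusted p = 0.0226, and 0.061 and 0.0817 under these alternatives).

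Of 15 amine receptor genes 9 were higher in LPLC1 and 3 in LC4 (80% called, against 56.8% of all genes). Beside 5-HT1A, the serotonin receptor gene 5-HT1B was at 2.64 to 3.12 in LPLC1 and 0.0525 to 0.0918 in LC4 (log2 fold change 5.30), and the dopamine receptor gene Dop2R at 2.85 to 4.01 and 0.0784 to 0.189 (4.85). Oamb, an octopamine receptor, was at 2.36, 2.92, 2.95 and 2.75 in LC4 and 0.213 to 0.520 in LPLC1, a log2 fold change of -2.85 ± 0.15 (edgeR adjusted p = 5.41e-09). Tbh, the enzyme that makes octopamine from tyramine, was at 1.12 to 1.36 in LPLC1 and 0.0637 to 0.0937 in LC4 (3.97).

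Of 40 neuropeptide genes listed 11 were tested, and 9 of these were higher in LPLC1 and 1 in LC4, with a median log2 fold change of 2.17. The share called was 90.9%, against 56.8% of all genes. Most were at low levels, and beside Dh31 those above 0.5 UMIs per 10000 in the higher type were Dh44, AstCC and spab. Dh44 was at 0.222 to 0.811 in LPLC1 and at 0.0122 or less in LC4 (6.51, SE 0.66, and 5.92 without the LC4 cross of strain 805), AstCC at 1.01 to 1.40 and 0.155 to 0.194 (2.74), and spab at 0.472 to 0.752 in LPLC1 and 1.56 to 2.01 in LC4 (-1.46). Of 30 neuropeptide receptor genes 16 were higher in LPLC1 and 6 in LC4 (73.3% called). Dh31-R, the receptor of the Dh31 peptide, was at 1.05, 0.790, 1.06 and 1.08 in LC4 and 0.133 to 0.396 in LPLC1, a log2 fold change of -2.01 ± 0.24 (edgeR adjusted p = 2.99e-05), so that the ligand gene and its receptor gene differed in opposite directions. CCHa2-R, CCAP-R and SPR were higher in LPLC1 (3.95, 3.23 and 2.78).

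The median size of the log2 fold change was 0.48 for potassium channels and 0.495 for sodium and calcium channels, against 0.38 over all genes. Of 16 potassium channel genes 8 were higher in LC4 and 4 in LPLC1 (75% called, against 56.8% of all genes), with a median log2 fold change of -0.30. Hk, a subunit of the Shaker channel, was at 67.8, 68.9, 64.9 and 67.8 in LC4 and 27.9 to 35.9 in LPLC1 (-1.07), and Shab at 25.1 to 28.0 and 11.3 to 14.6 (-1.04), whereas SLO2 was at 7.51 to 9.18 in LPLC1 and 2.28 to 2.71 in LC4 (1.69). The Shaker gene Sh was at 58.5 to 69.8 in LPLC1 and 68.6 to 73.5 in LC4 and was not called (log2 fold change -0.12, edgeR adjusted p = 0.0551). In 10 other settings its adjusted p was between 0.00842 and 0.0474 (edgeR), among them those without LPLC1 strain 320, 535 or 730 or LC4 strain 535 and the fit with a block by strain (0.00954). The gene para, the voltage-gated sodium channel, was at 107, 111, 119 and 116 in LC4 and 75.5 to 86.8 in LPLC1 (-0.50), and its accessory subunit tipE differed likewise (-1.12). Ca-alpha1T, a T-type calcium channel, was at 6.70 to 7.88 in LPLC1 and 1.01 to 1.08 in LC4, a log2 fold change of 2.77 ± 0.06 (edgeR adjusted p = 3.83e-18). The gap junction gene shakB was at 27.2, 25.8, 34.5 and 30.0 in LC4 and 15.1 to 21.5 in LPLC1 (-0.77).

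Of 27 genes of synaptic vesicles and active zones 16 were higher in LPLC1 and 5 in LC4, but only 4 and 0 by 2-fold or more. The share called was 77.8%, against 56.8% of all genes. The active zone marker brp averaged 10.9 and 10.8 in LPLC1 and LC4. Syx1A, a SNARE protein, was at 28.8 to 35.4 in LPLC1 and 13.4 to 14 in LC4 (log2 fold change 1.21), while Syt1, the calcium sensor of release, was at 33.3 to 34.9 in LC4 and 21.7 to 26.0 in LPLC1 (-0.55). Ace, the enzyme that breaks down acetylcholine, was at 29.3, 25.8, 32.8 and 26.8 in LC4 and 4.68 to 8.69 with a median of 6.11 in LPLC1, a log2 fold change of -2.20 ± 0.18 (edgeR adjusted p = 4.01e-06). ChT, the choline transporter, was higher in LPLC1 (0.95).

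Ggamma30A, a G protein gamma subunit, had the highest level among genes more than 8-fold apart, 66.9 to 76.9 with a median of 72.1 in LPLC1 and 7.44, 6.40, 7.06 and 6.53 in LC4. The log2 fold change was 3.37 ± 0.06 (adjusted p = 1.63e-19, edgeR). Rgk3, a small GTPase of a family that restrains calcium channels, was at 1.27 to 1.62 and 0.117 to 0.149 (3.37), while the adenylyl cyclase Ac76E was at 1.34, 1.38, 1.28 and 1.32 in LC4 and 0.188 to 0.400 in LPLC1 (-2.23). Of 28 cAMP and calcium signalling genes 19 were higher in LPLC1 and 5 in LC4. The share called was 85.7% here and 88.9% for the activity-regulated genes that follow, against 56.8% of all genes. Of 9 genes known as activity-regulated in the fly 7 were higher in LPLC1 and 1 in LC4, with a median of 1.03, led by the nuclear receptor gene Hr38 at 1.21 to 3.81 in LPLC1 and 0.239 to 0.448 in LC4 (2.89). The Hr38 call did not hold in the early crosses alone (2.45, edgeR adjusted p = 0.051).

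Of 45 transcription factors tested 25 were higher in LPLC1 and 13 in LC4, the markers included (84.4% called, against 56.8% of all genes). Of 19 RNA-binding protein genes 11 were higher in LPLC1 and 4 in LC4 (78.9% called). The gene msi, the translational repressor Musashi, was at 2.81 to 3.57 in LPLC1 and 0.352 to 0.475 in LC4 (log2 fold change 3.02), and fne of the ELAV family at 28.6 to 43.2 and 11.1 to 13.2 (1.57). Syp, a regulator of neuronal timing programmes in the fly, was at 27.4, 26.2, 32.1 and 27.4 in LC4 and 7.91 to 12.6 in LPLC1 (-1.44). The male transcripts lncRNA:roX1 and lncRNA:roX2 and msl-2 were not called.

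Some genes differed between LPLC1 and LC4 in how their UMIs were spread over cells rather than in the mean alone. For this 563 LPLC1 and 540 LC4 cells were thinned to 10000 UMIs each, shallower cells being left out, and the values are a description with no test. DIP-kappa had 15 or more UMIs in 13.7% of LPLC1 cells, 8.96% to 18.3% in each cross, and in 0 of 540 LC4 cells, which allows a share of up to 0.556%. At least 1 DIP-kappa UMI was found in 40.1% of LPLC1 cells (50.5% without thinning), 53.0% of LC4 cells (78.3%) and 5.99% of LPLC2 cells (12.3%), an order of LPLC1 and LC4 opposite to that of their mean levels. The fifth of the cells with the most DIP-kappa UMIs held 76.7% to 97.8% of them in the LPLC1 crosses and 58.0% to 64.0% in the LC4 crosses. The ratio of variance to mean was 13 to 19.6 in LPLC1 and 1.31 to 2.0 in LC4.

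Dh31 was also spread unevenly in LPLC1, with 15 or more UMIs in 38.2% of LPLC1 cells (29.9% to 46.3% by cross) and none in 37.8% of them. In LC4 0 of 540 cells had that many, but the LC4 crosses averaged only 0.185 thinned UMIs per cell, against 16.1 in LPLC1. The Dh31 ratio of variance to mean was 24.9 to 31.5 in LPLC1 and also high in LPLC2, at 11.1 to 15.7. At least 1 Dh31 UMI was found in 62.2% of LPLC1 cells (68.3% without thinning), 16.1% of LC4 cells (34.4%) and 34.4% of LPLC2 cells (44.7%). For CG33543 the type means were alike, yet 20.2% of LPLC1 cells and 2.59% of LC4 cells held no UMI, against 90.4% of LPLC2 cells, and the ratio of variance to mean was 2.80 to 6.22 in LPLC1 and 1.42 to 1.77 in LC4. The gene dpr3, whose mean differed little (log2 fold change -0.26, edgeR adjusted p = 0.0455, lost in 18 of 23 other settings), had a ratio of 2.76 to 3.50 in LPLC1 and 1.09 to 1.3 in LC4. For dpr13 the ranges met, 1.92 to 2.68 and 1.97 to 2.61. Uneven spread was not confined to LPLC1. In LC4, twit had at least 1 UMI in 64.4% to 82.3% of thinned cells by cross. Its ratio there was 3.12 to 4.02, at a mean of 4.15 thinned UMIs, while LPLC1 crosses averaged only 0.034. Median depth before thinning was 23182.5 UMIs in LPLC1, 29763.5 in LC4 and 20330 in LPLC2, and doublets were handled only by the deposited strain and type calls.

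**Figure D4:**
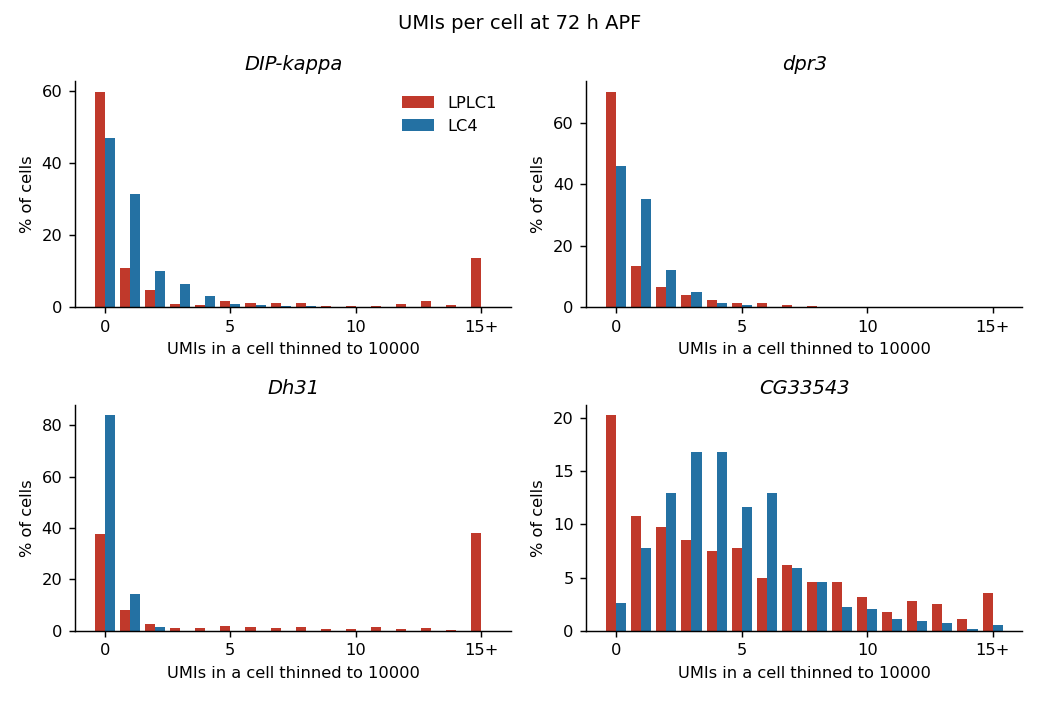
Share of cells (vertical axis, %) by the number of UMIs of a gene in a cell thinned to 10000 UMIs (horizontal axis, the last bar holding 15 or more), for 563 LPLC1 cells in red and 540 LC4 cells in blue at 72 h APF. DIP-kappa and Dh31 show LPLC1 cells both at 0 and at 15 or more (13.7% and 38.2%), whereas no LC4 cell was at 15 or more.

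The comparison was repeated in the libraries of 48 h and 96 h, which hold other animals. The strains at 96 h were those of 72 h, whereas at 48 h both types came from strains 399, 535, 555, 730, 799 and 805, so that the changes between 48 h and 72 h also rest on partly different crosses. At 48 h, with 690 LPLC1 and 385 LC4 cells of 6 crosses each, 2215 of 5845 genes were called (37.9%), and at 96 h, with 218 and 221 cells of 6 and 4 crosses, 1992 of 4994 (39.9%). Some crosses were small, with 12 and 14 cells for LC4 strains 555 and 399 at 48 h and 14 for LPLC1 strain 805 at 96 h. Shares called at different ages thus rest on unlike numbers of cells. Of the 3574 genes called at 72 h, 3236 were tested at 48 h, and 2571 of these (79.4%) had the same sign, where the share over all genes tested at both ages was 71.2%. At 96 h the values were 2467 of 2989 (82.5%) and 73.4%. Genes called with the opposite sign numbered 173 at 48 h and 91 at 96 h.

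The type difference itself changed between 48 h and 72 h for 1446 of 6611 genes (21.9%) and between 72 h and 96 h for 1053 (15.9%), by the edgeR test of the change with all stages in 1 fit. Each stage was 1 library, so stage and library cannot be told apart in a level, whereas both types of a stage shared the library. A difference of 2-fold or more was called for 10.1% of genes at 48 h (5.46% higher in LPLC1, 4.62% higher in LC4) and 16.2% at 96 h (9.55% and 6.69%). For 19 genes the sign turned between 48 h and 72 h with at least 2-fold in each direction, 14 towards LPLC1 and 5 towards LC4. These genes were singled out after their values were seen and by opposite calls at the 2 ages. A test of their change would restate that choice and is not used as support.

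DIP-beta turned the most. At 48 h its mean level was 3.15 in LC4 (2.54 to 3.77 over crosses) and 0.319 in LPLC1 (0.150 to 0.614), at 72 h it was 0.0590 in LC4 and 1.79 in LPLC1, and at 96 h 0.00805 and 2.09. The log2 fold change moved from -3.38 to 5.0. Fas2 moved from -2.97 at 48 h, where LC4 was at 7.28 to 11.5 and LPLC1 at 0.948 to 1.53, to 2.92 at 72 h and 3.13 at 96 h. In both genes the mean of LC4 was above that of LPLC1 at 48 h and below it at the later ages.

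The gene tim, a core gene of the circadian clock, had a mean of 0.974 at 48 h and 0.129 at 72 h in LC4 and of 0.432 and 0.652 in LPLC1, so that the log2 fold change moved from -1.33 to 2.31. The gene mtt, a gene of the metabotropic glutamate receptor family, went from 0.848 to 0.0540 in LC4 and from 0.0745 to 0.170 in LPLC1. CG30158 moved from -2.23 to 3.66. TrissinR, a neuropeptide receptor gene, turned the other way, from 1.12 to -1.86, with mean levels of 1.69 and 0.0375 in LPLC1 and of 0.780 and 0.129 in LC4. Kif3C, a kinesin gene, moved from 1.61 to -1.58 and remained lower in LPLC1 at 96 h (-2.26). Between 72 h and 96 h 1 gene turned in this way, AANATL7 (1.13 to -1.31).

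Ggamma30A, sdk, 5-HT1A, dpr16 and dpr17 kept their direction, and for each of them the difference was larger at 72 h than at 48 h. Genes were named in part for their size at 72 h, which favours this outcome, so no test of the change is given for them here. Ggamma30A was at 53.4 in LPLC1 and 24.2 in LC4 at 48 h, 71.6 and 6.86 at 72 h, and 66.5 and 1.29 at 96 h, so that its log2 fold change moved from 1.07 to 3.37 to 5.61. The gene sdk was at 0.845 and 5.26 at 48 h, 0.111 and 2.49 at 72 h, and 0.0252 and 4.02 at 96 h (-2.74, -4.49 and -7.17). 5-HT1A averaged 2.18 in LPLC1 at 48 h, 13.8 at 72 h and 6.34 at 96 h, while LC4 stayed at 0.09 or less on average. The genes dpr16 and dpr17 had log2 fold changes of 1.37 and 1.51 at 48 h and 6.34 and 7.23 at 96 h. DIP-kappa did turn, by less than the genes above: it was higher in LC4 at 48 h (-0.69, with means of 3.41 in LPLC1 and 5.18 in LC4) and higher in LPLC1 at 72 h (2.02), where LC4 was at 0.938.

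Counts by family are given beside those of all genes, of which 18.7%, 28% and 20.7% were called higher in LPLC1 at 48 h, 72 h and 96 h and 19.2%, 28.9% and 19.2% higher in LC4, and a change of a family between ages was not tested. Of 13 beat genes 3 were higher in LPLC1 and 5 in LC4 at 48 h, 11 and 2 at 72 h, and 8 and 4 at 96 h. Of the 16 potassium channel genes 3 were higher in LC4 at 48 h, 8 at 72 h and 11 at 96 h. Shab was higher in LPLC1 at 48 h (0.49) and higher in LC4 at 72 h and 96 h (-1.04 and -2.29). Of the 9 nicotinic subunits 3 were called at 48 h, 9 at 72 h and 7 at 96 h, where the shares of all genes called were 37.9%, 56.8% and 39.9%.

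**Figure D5:**
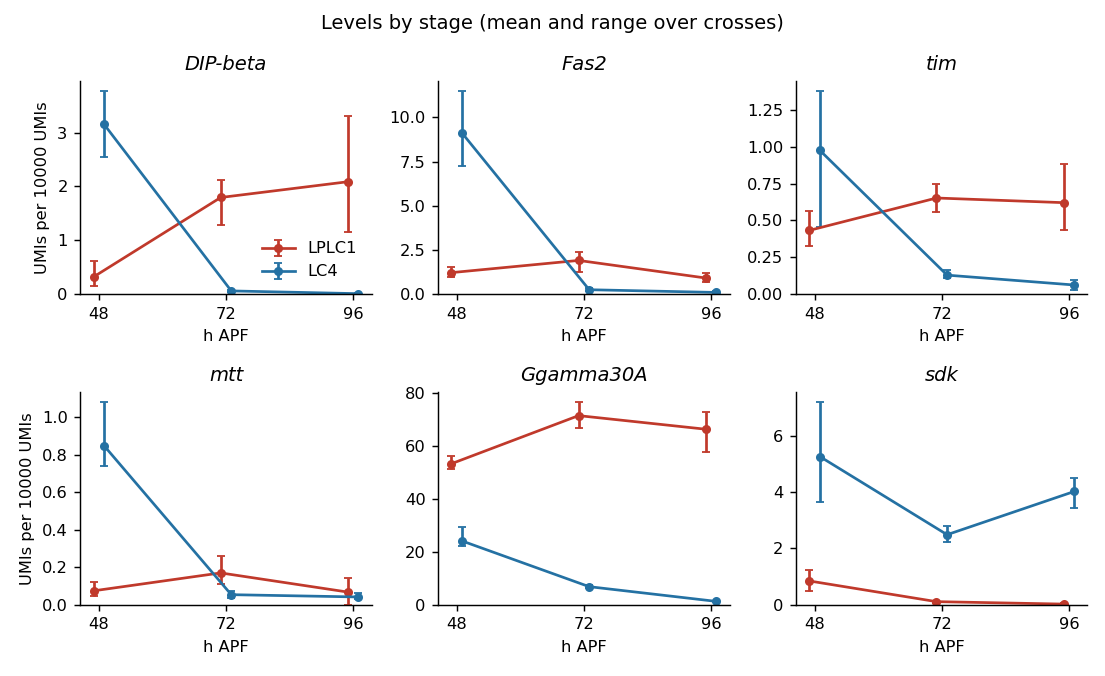
Mean level in UMIs per 10000 UMIs (vertical axis) by stage in h APF (horizontal axis) of 6 genes in LPLC1 (red) and LC4 (blue); bars give the lowest and highest cross, and the points of the types are set slightly apart. DIP-beta, Fas2, tim and mtt were higher in LC4 at 48 h and higher in LPLC1 at 72 h, while Ggamma30A (1.07 to 3.37) and sdk (-2.74 to -4.49) kept their direction with a growing difference.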

How the data were processed

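Single cells of the optic lobe were profiled with 10x Genomics 3' chemistry in 1 library per stage. Per the labels and the study's methods, the authors aligned reads to dm6 with Cell Ranger, assigned cells to DGRP strains by genotype, annotated types after clustering with Seurat 5.0.1, and deposited raw UMI counts of 17824 genes with tables of cell annotations. Of the deposited barcodes of the 72 h library (4317), the annotated cells of the final dataset (2369) were used. The methods state a minimum of 10000 UMIs and a maximum of 50000 UMIs and 10% mitochondrial UMIs, but 83 LPLC1 and 64 LC4 cells lie under the UMI minimum and were kept. The percent of mitochondrial UMIs of each cell was used as deposited by the authors. The change of the type difference between stages was a contrast in 1 fit over all stages. Barcodes present in more than 1 stage numbered 7, of which 3 were LPLC1 or LC4 cells at 72 h. Strains stand for separate crosses.

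UMIs were summed per cross and type (at least 10 cells) and tested with edgeR 4.0.16 (glmQLFit and glmQLFTest, robust, TMM, filterByExpr, R 4.3.3), with Benjamini-Hochberg adjustment over all genes tested and a threshold of 0.05. The SE was obtained from the fitted log2 fold change and its F statistic (size of the change over root F). On simulated counts of the 72 h comparison (6291 genes, 200 changed) the test recovered 68% of genes changed 1.5-fold and 96% of those changed 2-fold, with 16 calls among unchanged genes. Of all changed genes 89.5% were recovered. The simulation changed few genes, with random signs, whereas 56.8% of genes were called in the data. It therefore does not give the error rate of the comparison itself. LPLC1 and LC4 crosses of a strain shared the father's chromosome and the collection window, and their deviations from the type means correlated (0.116, 0.181, 0.174 and 0.157 for the 4 strains), so a block by strain was an alternative.

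Genes and lists were chosen with earlier results of these data known. Named genes were the 12 largest called differences in each direction with at least 1 UMI per 10000 in the higher type and no overlap of crosses, up to 3 members per list and direction with at least 0.5, genes that the study links to LPLC1 or LPLC2, and markers. The spread over cells, the genes with opposite signs at different stages and the fit to cells with a roX1 UMI were added after the data were seen. Positions are from the Ensembl annotation of Release 6, the assembly of dm6, and older symbols were matched through RefSeq synonyms. By a current or a unique older symbol 17762 of 17824 genes matched.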

Additional observations from a re-analysis of the deposited data

Results flagged for a closer look

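In 274 groups of crosses, 1 per gene and type, a cross that stands apart from the others at 72 h was flagged 14 times. Chance gives about 1 flag in 20 groups, which is near the number found, so the flags are listed only as values. In LPLC1 these were lncRNA:CR44024 in strain 320 (2.16 UMIs per 10000), twit in 805 (0.0650), DIP-theta in 805 (0.600), beat-Vb in 535 (1.96), Toll-6 in 320 (4.42), nAChRalpha3 in 805 (4.47) and spab in 799 (0.472). In LC4 they were Pvf3 in strain 805 (0.307), twit in 535 (4.83), Dh31-R in 535 (0.790), ChT in 399 (1.5), Syn in 799 (0.958), msi in 799 (0.475) and dpr13 in 399 (8.78). Strain 805 accounted for 3 of the 7 LPLC1 flags.

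The type difference (LPLC1 over LC4, log2) of 19 named genes changed by at least 2 between 48 h and 72 h with an edgeR adjusted p under 0.05 for the change. It moved towards LPLC1 by 8.33 for DIP-beta, 5.85 for Fas2, 3.44 for beat-VII, 3.42 for Fili, 3.41 for dpr16, 3.12 for dpr17, 3.09 for Pvf3, 2.79 for AstCC, 2.77 for 5-HT1A, 2.75 for msi, 2.69 for side-IV, 2.68 for DIP-kappa, 2.67 for trn, 2.30 for kug and 2.26 for Ggamma30A. It moved towards LC4 for Ac76E (-3.13), Cad87A (-3.12), side-V (-2.73) and CG11317 (-2.40). Many of these genes were named for their size at 72 h, and DIP-beta and Fas2 were also singled out by opposite calls. The adjusted p was therefore a rule for flagging and gives no support for a change.

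Between 72 h and 96 h the type difference changed by at least 2 for 13 named genes, under the same rule and with the same limit. The change was towards LPLC1 for Rgk3 (4.52), dpr11 (3.04), side-III (2.80), DIP-delta (2.76), dpr17 (2.61), CCHa2-R (2.50), CG34353 (2.34), Ggamma30A (2.19) and nAChRalpha6 (2.11). It was towards LC4 for sdk (-2.76), trn (-2.54), CG32521 (-2.25) and nAChRalpha5 (-2.07).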

How the results depend on the processing

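With a replicate block by strain 3423 genes were called at 72 h, against 3574 without it, and 3245 of the 3574 were called in the same direction; the block ended the calls of dpr3 (edgeR adjusted p = 0.138) and side-III (0.0535) and made that of Sh (0.00954). The count was 3214 with only the strains crossed to both drivers, 3307 with the DESeq2 Wald test, 3211 to 3537 when 1 cross was left out, 2535 in cells thinned to 10000 UMIs, 2563 and 3006 in the earlier and later collection window, and 3108 in cells with a lncRNA:roX1 UMI, an alternative chosen after seeing the data. In cells with no lncRNA:roX1 UMI it was 2435, the lowest of these, with 1241 genes higher in LPLC1 and 1194 in LC4. This setting held fewer cells and left out the LPLC1 cross of strain 805, where 99.0% of 98 cells had such a UMI, as under the minimum of 10 cells. At 48 h and 96 h it also left out crosses under that minimum. With no filter on low counts 4111 genes were called, and 1625 genes differed by 2-fold or more, 910 higher in LPLC1 and 715 in LC4. Leaving out 1 cross gave 916 to 1064 such genes, 1600 to 1756 genes higher in LPLC1 and 1611 to 1809 higher in LC4. The type difference changed between 48 h and 72 h for 948 genes in thinned cells, 745 in cells with no lncRNA:roX1 UMI and 1161 to 1612 with 1 cross left out. Between 72 h and 96 h these counts were 656, 429 and 828 to 1114. The cause of these shifts was not tested. Of 3151 values of named genes under 23 alternatives 3101 kept direction and side of the threshold, 31 lost a call, 15 gained one and 4 changed sign, these being CG33543, not called in any of them, at -0.011 and -0.019 without LC4 strains 399 and 535 (up to 0.158 without 799), -0.20 in cells with no lncRNA:roX1 UMI and -0.045 in the later window. The calls of beat-Vb, Toll-6, kek6 and Hr38 ended in the earlier window (edgeR adjusted p = 0.0894, 0.257, 0.0890 and 0.0511). The side-III call also ended without LC4 strain 399, 535 or 805 (edgeR adjusted p 0.0589 to 0.0791). The fold of ct (-8.23), twit (-8.49), Cad87A (-5.66), DIP-beta (5.93) and CCAP-R (3.86) moved by over 1.5 times in cells with no lncRNA:roX1 UMI, that of lncRNA:CR44024 (8.06) and kek3 (6.21) in the earlier window, and that of Sytbeta (6.73) and Fili (7.03) in thinned cells.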
